A study of Mus musculus with 6 samples.

Results

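The genes described here are the secreted Wnt ligands, their Frizzled receptors and co-receptors, and the proteins that modulate them, in lungs of balb/c mice. Members were chosen by gene symbol: numbered Wnt, Fzd, Sfrp, Dkk and Rspo genes, Lgr4 to Lgr6, the Axin and Tcf7l genes, and 10 single names such as Lrp5, Lef1 and Notum. They came to 56 of the 29753 gene rows in the count table. By role they were 18 Wnt ligands, 10 Frizzled receptors, 4 co-receptors, 7 R-spondins and R-spondin receptors, 2 membrane ubiquitin ligases, 10 secreted inhibitors, and 5 Axin scaffolds and TCF/LEF factors. Lungs were sequenced in bulk on day 14 (D14) and day 0 (D0) after K7M2 cells, from a metastatic osteosarcoma line of balb/c mice, had been placed orthotopically. Each day had 3 libraries, called biological replicates in the labels, and both days carry the implantation in their treatment label. The labels name no genotype beyond the strain and no other agent, and they do not say whether a library came from 1 mouse, whether D0 mice held cells at harvest, or the animals' age and sex. No D14 lungs without implanted cells were analysed here, so tumour, procedure, age and day of collection cannot be told apart.

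Wnt proteins are lipid-modified ligands that bind a Frizzled receptor together with the co-receptor Lrp5 or Lrp6. In the canonical branch this stops the Axin scaffold from marking beta-catenin for destruction, and beta-catenin then acts with TCF/LEF factors on target genes. Other Wnt signals run through Ror receptors without beta-catenin. The ligases Rnf43 and Znrf3 remove Frizzled receptors from the cell surface, and R-spondins, bound to Lgr receptors, relieve that removal. In lung, Wnt2 and Wnt7b are known for their part in the growth of the organ, and Axin2 marks cells that receive the canonical signal.

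The D14 libraries held 16171595 to 17385006 counts and the D0 libraries 14878101 to 16001097. A level of 3 counts in 1 library, taken as the limit that a count of 0 allows, was 0.173 to 0.202 CPM (counts scaled to library size), and covers counting error only. All 6 alveolar type 2 markers, among them the surfactant gene Sftpc, and all 6 endothelial markers had counts in every library, in accord with the lung label. The extraction text in the labels speaks of BMDMs, which the tissue label does not. D0 replicate 3 stood apart, at 82.9 on the first principal component against −41.5 to 15.7 in the other libraries, and haemoglobin genes took 4.99% of its counts, against 0.985% to 2.77% elsewhere. A p-value here rests on the spread over these 3 libraries a day.

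After the filter on low counts 47 of the 56 members were tested among 17686 genes. By edgeR's quasi-likelihood test 0 members passed an adjusted p of 0.05, where 0.0339% of all tested genes did, 0.017% in each direction. limma-voom also called 0 members. At an unadjusted p under 0.05 stood 1 member higher at D14, Fzd4, and 7 lower, namely Fzd2, Wnt7a, Wnt3a, Wnt9a, Notum, Wnt10b and Rspo1. Those are 2.13% and 14.9% of the tested members, against 5.48% and 7.09% of all tested genes. When D0 replicate 1 was left out, 12 members were lower and 6 higher at that p, and when D0 replicate 2 was left out, 2 were lower and 2 higher. Leaving out D14 replicate 3 gave 4 lower members, and leaving out D0 replicate 3 gave 2 higher ones. DESeq2 called 2 of the 42 members to which it gave an adjusted p, Fzd4 higher and Fzd2 lower, beside 1.68% of all genes (1.03% higher and 0.65% lower).

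The ranges of the 2 days did not overlap in 12 members, or 25.5%, against 21.6% of all tested genes. D14 lay above D0 in 5 of them (Fzd4, Lrp5, Lrp6, Dkk3 and Rspo3), or 10.6% of tested members against 10.9% of all tested genes. D14 lay below D0 in 7 (Fzd2, Wnt3a, Wnt7a, Wnt7b, Wnt9a, Wnt10b and Notum), or 14.9% against 10.7%. The median log2 fold change of the tested members was −0.17, beside −0.033 for all tested genes, and without D0 replicate 2 it was 0.0079. Positive values were found in 19 of 47 members, or 40.4%, against 46.9% of all tested genes.

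**Figure D1:**
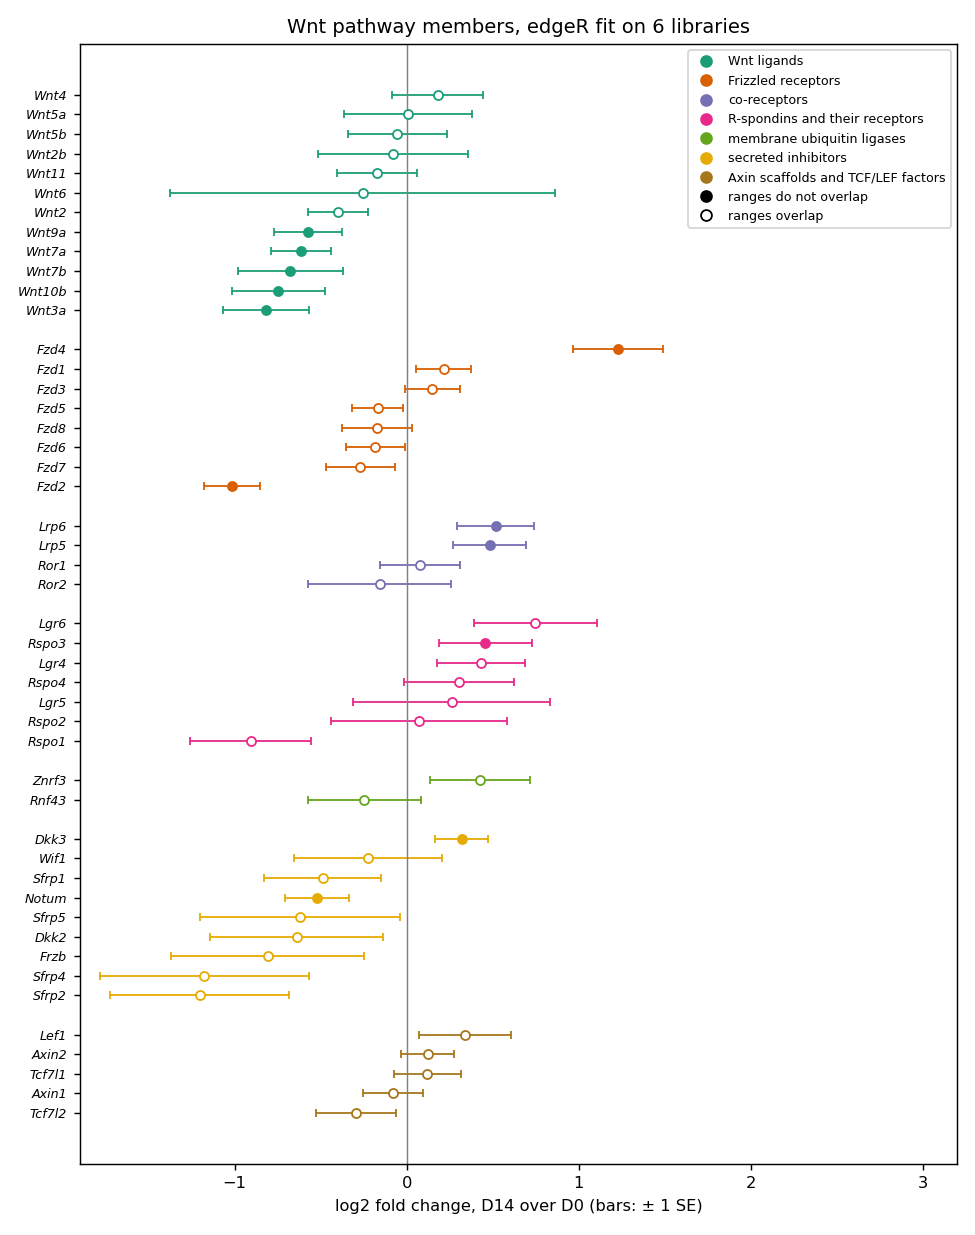
Log2 fold change of D14 over D0 (x axis) for the 47 tested members, grouped by role and ordered within a role. Points are edgeR estimates, bars are ± 1 standard error, and filled points mark the 12 members whose libraries did not overlap between days. Fzd4 lies farthest to the right at 1.23, and the Wnt ligands with filled points all lie left of 0.

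Among the Frizzled receptors Fzd4 was higher and Fzd2 lower at D14, and the other 6 tested receptors had overlapping ranges. Fzd4, the receptor for Norrin that is known for its role in blood vessel formation, had 254, 282.5 and 328 CPM in D14 lungs, against 126, 161.5 and 80.9 CPM in D0 lungs. Every D14 library lay above every D0 library, and D0 replicate 3 was the lowest. On the log2 scale D14 exceeded D0 by 1.23 (SE 0.26; edgeR adjusted p = 0.316). Without D0 replicate 3 it was 1.00 (SE 0.17; adjusted p = 0.169), and DESeq2 gave 1.24 (SE 0.28; adjusted p = 0.00228). In GRCm38 the gene lies on chromosome 7 from 89404355 to 89413134, on the plus strand, and is annotated as protein-coding.

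Fzd2, a receptor of a subfamily with Fzd1 and Fzd7, had 34.1, 29.0 and 25.4 CPM in D14 lungs, against 56.7, 66.2 and 55.9 CPM in D0 lungs. The gap between the groups was wider than the spread within either, and D0 replicate 3 did not stand apart here. Its log2 fold change, −1.01 (SE 0.16; edgeR adjusted p = 0.167), ranked 34 by p among all tested genes, and DESeq2 gave −1.0 (SE 0.20; adjusted p = 0.000119). Over the 6 fits that each left out 1 library it stayed between −1.12 and −0.91. Fzd2 lies on chromosome 11 from 102604396 to 102608058, also on the plus strand. Its relatives Fzd1, at 102 ± 1.64 CPM in D14 and 88.0 ± 14.9 CPM in D0 lungs, and Fzd7, at 56.2 ± 7.04 CPM in D14 and 67.7 ± 15.9 CPM in D0 lungs (SD, n = 3 each), overlapped between days. Fzd1 differed by 0.22 (SE 0.16) and Fzd7 by −0.27 (SE 0.20) on the log2 scale. Leaving out D0 replicate 3 gave 0.096 for Fzd1, and leaving out D0 replicate 1 gave 0.35.

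Levels of different genes were compared as CPM per kilobase of the longest annotated transcript. On that scale Fzd4 made up 34.8%, 40.4% and 42.8% of the summed Frizzled level in D14 lungs, against 19.2%, 22.4% and 15.6% in D0 lungs. Fzd2 made up 8.57%, 7.62% and 6.10% in D14 lungs, against 15.8%, 16.8% and 19.7% in D0 lungs. For neither receptor did the shares of the days overlap. This was not particular to them. Fzd7, whose CPM overlapped between days, made up 12.9%, 10.5% and 10.8% in D14 lungs, against 14.5%, 17.5% and 15.4% in D0 lungs. In D14 lungs Fzd4 led clearly at 42.9 ± 5.54 CPM per kilobase, followed by Fzd1 at 24.4 ± 0.394. In D0 lungs Fzd1 (20.97 ± 3.56), Fzd4 (18.3 ± 6.01), Fzd2 (16.3 ± 1.56) and Fzd7 (14.95 ± 3.52) had overlapping ranges (SD, n = 3). The Fzd4 and Fzd2 share differences each had an exact two-sided permutation p of 0.1, the smallest that 3 against 3 libraries allow. That value follows from the lack of overlap and adds nothing to it, and shares of 1 sum are not independent. The summed Frizzled level itself was 109 ± 4.99 CPM per kilobase in D14 and 94.2 ± 15.4 CPM per kilobase in D0 lungs, with overlapping ranges.

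**Figure D2:**
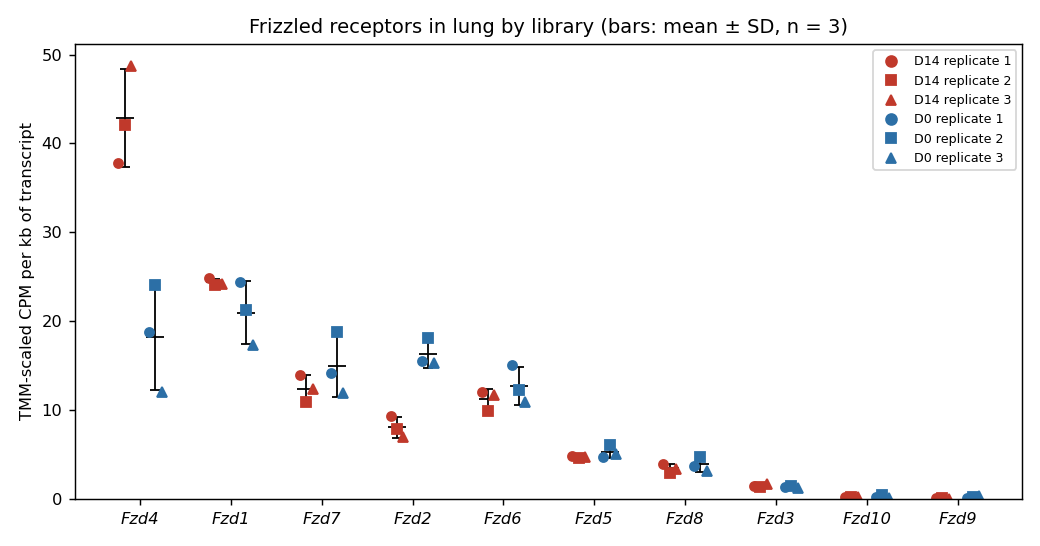
TMM-scaled CPM per kilobase of transcript (y axis) of the 10 Frizzled receptors in each library, with D14 libraries left of D0 libraries and bars for the mean ± SD of 3 libraries. Fzd4 stands at 42.9 ± 5.54 in D14 and 18.3 ± 6.01 in D0 lungs, and Fzd2 is the receptor with the opposite order and no overlap.

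The remaining Frizzled receptors differed little. Fzd6, a receptor tied to planar polarity of epithelia, had 48.5 ± 5.12 CPM in D14 and 54.98 ± 9.20 CPM in D0 lungs, and Fzd5 had 32.6 ± 0.925 CPM in D14 and 36.6 ± 4.94 CPM in D0 lungs. Fzd8 stood at −0.17 (SE 0.20) and Fzd3 at 0.15 (SE 0.16) on the log2 scale. Fzd9 and Fzd10 were below the filter, with 4, 2 and 1 counts of Fzd9 in D14 and 2, 8 and 10 counts in D0 libraries, and 6 to 25 counts of Fzd10 over all libraries.

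Summed endothelial markers were higher at D14 together with Fzd4. The 6 markers (Pecam1, Cdh5, Cldn5, Kdr, Tie1 and Tek) summed to 4553 to 4685 CPM in D14 lungs, against 2001 to 4018 CPM in D0 lungs, and 3 of the 6 had an unadjusted p under 0.05, all higher, where 5.48% of all tested genes were. By edgeR 0 of the 6 passed the adjusted threshold. All D14 libraries lay above D0 in 4 of the 6, against 10.9% of all tested genes, while Cdh5 and Tie1 overlapped between days. Tie1 had 431 CPM in D0 replicate 1, above its 350 to 370 CPM in D14 lungs. Per 1000 CPM of that sum, Fzd4 had 55.1, 62.0 and 69.9 CPM in D14 lungs, against 31.4, 58.8 and 40.4 CPM in D0 lungs. On this scale D0 replicate 2 lay within the D14 range, so the days overlapped. The part of the endothelial share in the Fzd4 difference was not tested, and in bulk lung fewer cells of a type and less RNA per cell cannot be told apart. Tspan12, a tetraspanin that works with Fzd4 in Norrin signalling, had 112 ± 4.94 CPM in D14 and 82.3 ± 24.8 CPM in D0 lungs, and stood at 0.45 on the log2 scale (SE 0.23; edgeR adjusted p = 0.444). Norrin itself, Ndp, was below the filter at 0.184 ± 0.0522 CPM in D14 and 0.124 ± 0.0522 CPM in D0 lungs, about the level of 3 counts.

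**Figure D3:**
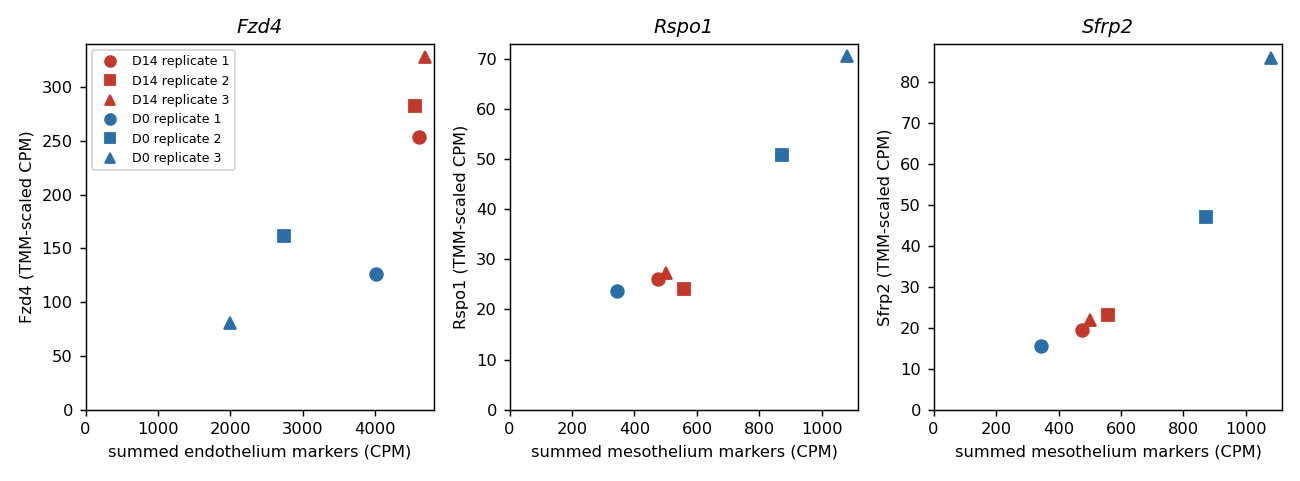
Level of Fzd4, Rspo1 and Sfrp2 (y axes, TMM-scaled CPM) against the summed CPM of endothelial or mesothelial markers (x axes) in each of the 6 libraries. Fzd4 is high in the 3 D14 libraries, where the endothelial sum is 4553 to 4685 CPM, and Rspo1 and Sfrp2 are highest in D0 replicate 3, which has the highest mesothelial sum.

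Of the 12 Wnt ligands tested 2 had positive and 10 negative log2 fold changes, with a median of −0.33, where 46.9% of all tested genes had positive values. Of the 10, 4 had an unadjusted p under 0.05 (Wnt3a, Wnt7a, Wnt9a and Wnt10b), and others such as Wnt5b and Wnt2b lay near 0. With no scaling factors 1 was positive, and after correction for GC content 4 were positive and the median was −0.20. The 18 ligands summed to 51.7, 48.4 and 43.8 CPM per kilobase in D14 lungs, against 61.3, 71.7 and 68.7 CPM per kilobase in D0 lungs. Every D14 library lay below every D0 library. The exact two-sided permutation p of 0.1, the smallest possible, follows from that order and adds nothing to it. B cell markers, 5 of 5 with counts, also lay lower, at 79.8 to 114 CPM in D14 lungs against 128 to 216 CPM in D0 lungs, and 4 of the 5 had an unadjusted p under 0.05, where 7.09% of all tested genes were lower at that p. Adipocyte markers varied within both days, from 40.5 to 932 CPM in D14 and 45.9 to 821 CPM in D0 lungs. The part of these cell types in the ligand levels was not tested. Wnt2, a ligand of lung mesenchyme and the most abundant per kilobase, had 26.6, 32.4 and 25.5 CPM in D14 and 31.4, 37.5 and 42.4 CPM in D0 lungs. The Wnt2 ranges overlapped at D14 replicate 2 and D0 replicate 1 (log2 fold change −0.40, SE 0.17; edgeR adjusted p = 0.404). Per 1000 CPM of 9 summed fibroblast markers, Wnt2 had 4.64, 4.94 and 4.42 CPM in D14 lungs, against 5.78, 5.12 and 5.125 CPM in D0 lungs. On that scale the days did not overlap, and the part of the fibroblast share was not tested. The scale rests largely on 1 marker, Inmt, at 2698 ± 244 CPM in D14 and 3617 ± 1230 CPM in D0 lungs (SD).

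Wnt3a, a canonical ligand, had 24.9, 15.2 and 14.2 CPM in D14 lungs, against 29.8, 37.6 and 28.1 CPM in D0 lungs (log2 fold change −0.82, SE 0.25; edgeR adjusted p = 0.362). Wnt10b, a canonical ligand that is known to restrain adipocyte formation, had 22.3, 18.4 and 10.4 CPM in D14 and 30.4, 29.3 and 25.9 CPM in D0 lungs (log2 fold change −0.75, SE 0.27, and −0.49 without D14 replicate 3). For both genes D14 replicate 1 came closest to the D0 range without entering it. Wnt7a had 24.2, 19.6 and 17.05 CPM in D14 lungs, against 29.8, 33.8 and 29.4 CPM in D0 lungs (−0.61, SE 0.17; adjusted p = 0.348). Its paralog Wnt7b, a ligand of lung epithelium, had 5.04, 5.23 and 3.65 CPM in D14 lungs, against 5.58, 6.33 and 10.4 CPM in D0 lungs (−0.68, SE 0.30). The Wnt7b gap was narrow, and its spread came mostly from D0 replicate 3, without which the log2 fold change was −0.36 (SE 0.26). Wnt9a had 11.35, 8.42 and 8.78 CPM in D14 lungs, against 12.4, 15.0 and 15.0 CPM in D0 lungs (−0.57, SE 0.20; adjusted p = 0.364).

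Per kilobase, Wnt3a, Wnt10b and Wnt7a stood at 6.55 ± 2.13, 6.28 ± 2.24 and 6.39 ± 1.13 in D14 lungs, and at 11.5 ± 1.84, 10.5 ± 0.867 and 9.77 ± 0.767 in D0 lungs (SD, n = 3), so that these ligands had like levels on each day. Wnt2 was above them in each group mean, at 12.5 ± 1.64 in D14 and 16.5 ± 2.44 in D0 lungs. Of the 7 members with D14 below D0, 6 had their highest D14 value in replicate 1, the exception being Wnt7b. D14 replicate 1 was the highest D14 library in 34.4% of all tested genes with known GC content. Among those over 55% GC it was so in 45.9%.

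**Figure D4:**
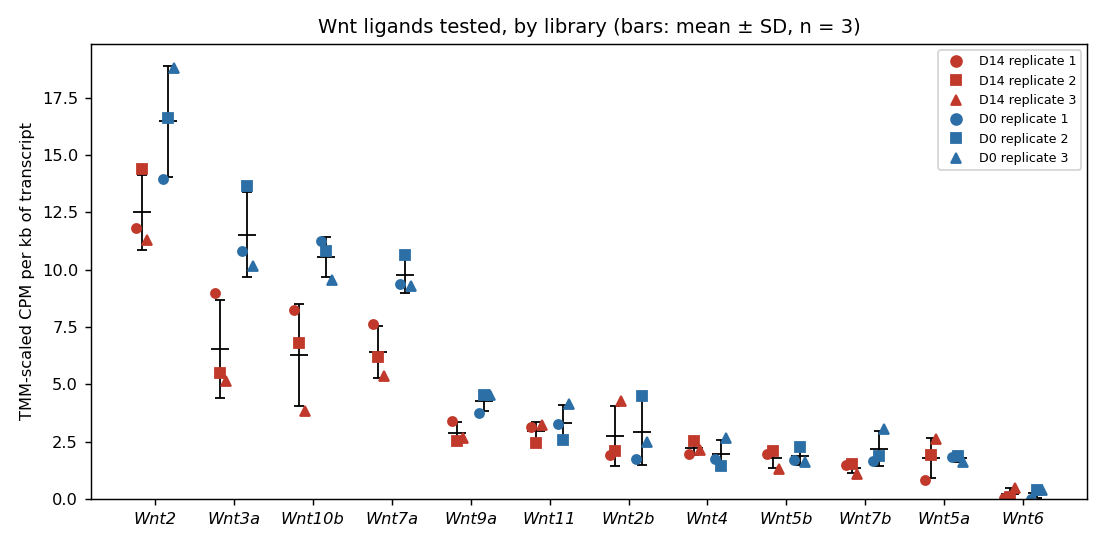
TMM-scaled CPM per kilobase of transcript (y axis) of the 12 tested Wnt ligands in each library, D14 left of D0, with bars for the mean ± SD of 3 libraries. Wnt3a, Wnt10b, Wnt7a, Wnt9a and Wnt7b have all D14 libraries below all D0 libraries, while Wnt2 overlaps at 1 library of each day.

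The other ligands showed no such gap. Wnt5a, which signals mainly without beta-catenin, had 5.85, 13.3 and 18.2 CPM in D14 lungs, against 12.85, 13.1 and 11.2 CPM in D0 lungs. It averaged 12.5 ± 6.22 CPM in D14 and 12.4 ± 1.01 CPM in D0 lungs, so the D14 libraries differed more among themselves than from D0. Wnt2b likewise varied within both days, by 48.0% in D14 and 48.8% in D0 lungs (SD as a percent of the mean). On the log2 scale Wnt4 stood at 0.18 (SE 0.26), Wnt5b at −0.054 (SE 0.29), Wnt11 at −0.17 (SE 0.23), Wnt2b at −0.080 (SE 0.43) and Wnt6, with 0 to 16 counts, at −0.25 (SE 1.12). Below the filter were 6 ligands. Wnt9b had 5 to 14 counts in each library, Wnt3 had 2 to 8 and Wnt10a 2 to 5. Wnt1 had 0 counts in the D14 libraries and 1, 0 and 3 in the D0 libraries, and Wnt8a had 4 counts in D0 replicate 2 and 0 elsewhere. Wnt16 had 0, 3 and 1 counts in the D14 libraries and 0 in the D0 libraries. At these counts no difference was detectable.

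Start site windows are shown for the receptor with the highest fold change, Fzd4, for the neighbouring ligand genes Wnt3a and Wnt9a, which were lower together, and for Axin2, the standard canonical target. Each window runs from 250 bases before to 50 bases after the RefSeq gene start in GRCm38.p6 and is printed 5′ to 3′ on the gene's own strand. Wnt3a (minus strand, chromosome 11 from 59248033 to 59290752) and Wnt9a (plus strand, from 59306928 to 59333552) point away from each other with 16175 bases between them.
Fzd4, chr7:89404116-89404415, plus strand: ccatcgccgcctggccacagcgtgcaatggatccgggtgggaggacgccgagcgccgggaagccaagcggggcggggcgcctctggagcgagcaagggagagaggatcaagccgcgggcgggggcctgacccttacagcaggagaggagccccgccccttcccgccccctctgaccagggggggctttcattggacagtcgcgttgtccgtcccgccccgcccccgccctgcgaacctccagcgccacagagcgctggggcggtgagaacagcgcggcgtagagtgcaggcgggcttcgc
Wnt3a, chr11:59290702-59291001, minus strand: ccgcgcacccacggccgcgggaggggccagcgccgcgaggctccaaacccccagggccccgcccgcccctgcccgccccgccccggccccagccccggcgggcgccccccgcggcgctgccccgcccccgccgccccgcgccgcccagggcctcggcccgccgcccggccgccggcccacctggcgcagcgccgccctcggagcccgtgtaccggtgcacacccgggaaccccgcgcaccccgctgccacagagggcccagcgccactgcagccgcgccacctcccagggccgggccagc
Wnt9a, chr11:59306680-59306979, plus strand: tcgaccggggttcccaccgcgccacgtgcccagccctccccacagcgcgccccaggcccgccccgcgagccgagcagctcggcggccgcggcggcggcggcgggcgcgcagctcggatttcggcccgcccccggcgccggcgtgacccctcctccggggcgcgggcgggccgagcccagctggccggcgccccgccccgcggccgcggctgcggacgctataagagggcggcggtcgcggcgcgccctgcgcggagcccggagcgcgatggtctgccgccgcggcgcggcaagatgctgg
Axin2, chr11:108920099-108920398, plus strand: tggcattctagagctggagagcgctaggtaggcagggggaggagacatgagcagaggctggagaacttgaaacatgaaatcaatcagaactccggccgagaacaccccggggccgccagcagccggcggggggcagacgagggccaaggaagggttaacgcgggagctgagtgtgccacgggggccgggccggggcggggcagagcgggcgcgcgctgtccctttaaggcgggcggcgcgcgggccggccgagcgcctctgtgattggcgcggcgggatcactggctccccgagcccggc
The TCF/LEF core was searched as CTTTG followed by AT or AA or TT or TA on both strands, and matches would be in capitals. These windows hold none, so all letters are in lower case. Of 37 members found in the promoter table, which had 45 windows, 7 held a match, in 15.6% of windows against 16.9% of all 32851 windows. GC content was 86.3% in the Wnt3a window, 83.3% in Wnt9a, 72.7% in Fzd4 and 70% in Axin2. The median was 67.3% over the members' windows and 52.7% over all windows. The shares of windows with a match were not compared at like GC content. Sites outside these 300 bases were not searched.

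The canonical co-receptors were both higher at D14. Lrp5 had 164, 175 and 194 CPM in D14 lungs, against 156, 134 and 92.0 CPM in D0 lungs, and Lrp6 had 163, 159 and 188 CPM in D14 lungs, against 142, 133 and 81.5 CPM in D0 lungs. For both, D0 replicate 3 was far below the other D0 libraries, while D0 replicate 1 came close to the D14 range. On the log2 scale Lrp5 stood at 0.48 (SE 0.21; edgeR adjusted p = 0.405) and Lrp6 at 0.52 (SE 0.22; edgeR adjusted p = 0.398). Without D0 replicate 3 they stood at 0.30 (SE 0.14) and 0.31 (SE 0.13). Per 1000 CPM of endothelial markers, Lrp5 had 38.5 ± 2.95 CPM in D14 and 44.5 ± 5.10 CPM in D0 lungs, so the order of the means was turned on that scale, with overlapping ranges. The part of the endothelial share was not tested here either. Ror1 and Ror2, receptors of the branch without beta-catenin, stood at 0.080 (SE 0.23) and −0.16 (SE 0.42) on the log2 scale.

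Among the R-spondins Rspo1 was lower and Rspo3 higher at D14, neither past the adjusted threshold. With their Lgr receptors 6 of 7 had positive log2 fold changes, where 46.9% of all tested genes did. Of the 6, Rspo2 lay near 0, at 0.070 (SE 0.51). At an unadjusted p under 0.05 stood 1 of the 7, Rspo1, where 7.09% of all tested genes were lower at that p. Rspo1 was by far the most abundant per kilobase, at 14.1 ± 0.875 in D14 and 26.4 ± 12.8 in D0 lungs, with no other member of its list above 1.82 ± 0.548 (SD, n = 3). It had 26.0, 24.1 and 27.3 CPM in D14 lungs, against 23.7, 50.8 and 70.6 CPM in D0 lungs. D0 replicate 1 lay below all D14 libraries, and the other D0 libraries well above them. Its log2 fold change, −0.90 (SE 0.35; edgeR adjusted p = 0.380), was −0.53 when D0 replicate 3 was left out and −1.23 when D0 replicate 1 was. Rspo3, known from endothelium, had 2.61, 3.32 and 3.65 CPM in D14 lungs, against 2.15, 2.36 and 2.46 CPM in D0 lungs (0.46, SE 0.27; adjusted p = 0.482). For Rspo3 these levels were 45 to 57 counts in D14 libraries, against 35 to 37 in D0 libraries. Rspo4, at 4.31 ± 1.3 CPM in D14 and 3.49 ± 0.747 CPM in D0 lungs, and Rspo2 overlapped between days.

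The R-spondin receptors Lgr4, Lgr5 and Lgr6 stood at 0.43 (SE 0.26), 0.26 (SE 0.57) and 0.75 (SE 0.36) on the log2 scale, all with overlapping ranges. Lgr6 had 6.31, 6.51 and 10.8 CPM in D14 lungs, against 6.45, 4.66 and 2.88 CPM in D0 lungs. Lgr5, a stem cell marker in gut, was scarce here with 4 to 14 counts per library. The ligase Znrf3 had 32.3, 28.0 and 23.65 CPM in D14 lungs, against 20.6, 28.9 and 12.9 CPM in D0 lungs (0.43, SE 0.29; edgeR adjusted p = 0.523, and 0.18 without D0 replicate 3 or 0.74 without D0 replicate 2). Its partner Rnf43 had 18.4, 14.7 and 7.63 CPM in D14 lungs, against 17.7, 18.3 and 12.3 CPM in D0 lungs (−0.25, SE 0.33). Both ligases overlapped between days, and the sign of Rnf43 turned without D14 replicate 3, to 0.043.

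Of the 9 secreted inhibitors tested 1 had a positive log2 fold change, where 46.9% of all tested genes did, and the median was −0.62. At an unadjusted p under 0.05 stood 1 of the 9, Notum, where 7.09% of all tested genes were lower at that p. The other 7 negative values did not pass it. Dkk3, a divergent Dickkopf protein, was the exception, with 92.8, 95.85 and 96.97 CPM in D14 lungs, against 86.5, 78.6 and 63.6 CPM in D0 lungs (0.32, SE 0.15; edgeR adjusted p = 0.424, and 0.21 without D0 replicate 3). All D14 libraries lay above D0, and again D0 replicate 3 was the lowest. Notum, an enzyme that strips the lipid from Wnt proteins, had 9.44, 8.35 and 7.18 CPM in D14 lungs, against 11.5, 12.4 and 11.9 CPM in D0 lungs (−0.52, SE 0.18; adjusted p = 0.364). The antisense gene Notumos overlaps Notum exons with 5 to 43 counts per library, against 112 to 198 for Notum. Notumos was itself lower, at 0.787 CPM in D14 and 2.69 CPM in D0 lungs on average (−1.77, SE 0.49; edgeR adjusted p = 0.347, ranges without overlap), and the labels do not say whether counting used strand.

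Sfrp2, a secreted decoy for Wnt proteins, had 19.6, 23.1 and 21.9 CPM in D14 lungs, against 15.5, 47.2 and 85.9 CPM in D0 lungs. Its log2 fold change, −1.20 (SE 0.52; edgeR adjusted p = 0.402), rested on D0 replicates 2 and 3, since D0 replicate 1 lay below all D14 libraries. It was −0.54 when D0 replicate 3 was left out and −1.62 when D0 replicate 1 was. Sfrp1 likewise had D0 replicate 1 lowest and the other D0 libraries highest, with 20.3, 23.5 and 24.9 CPM in D14 lungs and 16.05, 43.7 and 36.7 CPM in D0 lungs (−0.49, SE 0.34). Sfrp4, Sfrp5, Frzb and Dkk2 were scarce, at 6 to 91 counts per library, with values from −1.18 to −0.62 on the log2 scale. Wif1, another Wnt-binding inhibitor, had 14.1 ± 2.46 CPM in D14 and 16.4 ± 10.7 CPM in D0 lungs. Its D0 order was the reverse of that of Sfrp2, with 28.55 CPM in replicate 1 and 8.15 CPM in replicate 3 (−0.22, SE 0.43). Dkk1 had 8 counts in D0 replicate 1 and 0 in all other libraries.

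Summed mesothelial markers had the same order as Rspo1 and Sfrp2 over the D0 libraries. Msln, Upk3b and Upk1b each had that order, while Wt1 and Lrrn4 were highest in D0 replicate 2. The 5 markers (Msln, Upk3b, Wt1, Lrrn4 and Upk1b) all had counts and summed to 475, 558 and 502 CPM in D14 lungs, against 344, 872 and 1080 CPM in D0 lungs. In D14 lungs replicate 2 had the highest sum but the lowest Rspo1 level. The D0 order was not particular to mesothelium. Summed fibroblast markers, at 5442, 7329 and 8277 CPM, also rose from D0 replicate 1 to 3. So did the sums of smooth muscle and pericyte, alveolar type 2, adipocyte and red cell markers. These are sums, in which abundant genes weigh most, as Inmt with 2252, 3956 and 4641 CPM does among the fibroblast markers. Single markers could go the other way. Pdgfra and Mfap4 of the fibroblast list fell from D0 replicate 1 to 3, as did Pdgfrb and Cspg4 of pericytes and Abca3 of alveolar type 2 cells. Per 1000 CPM of the sum, Rspo1 had 54.8, 43.2 and 54.4 CPM in D14 lungs, against 68.9, 58.3 and 65.3 CPM in D0 lungs, and the groups did not overlap. Sfrp2 had 41.2, 41.4 and 43.6 CPM in D14 lungs on that scale, against 45.1, 54.15 and 79.5 CPM in D0 lungs, also without overlap, while Sfrp1 overlapped. The part of the mesothelial share in these levels was not tested.

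Within the nucleus and cytoplasm the members differed little between days. Axin2 had 31.3, 30.55 and 31.2 CPM in D14 lungs, against 31.6, 29.9 and 23.95 CPM in D0 lungs, where replicate 3 alone was low. The days differed by 0.12 on the log2 scale (SE 0.15; edgeR adjusted p = 0.732), by 0.014 without D0 replicate 3 and by 0.21 without D0 replicate 1. Lef1, a TCF/LEF factor that is also a canonical target and is abundant in T cells, had 15.5, 23.0 and 22.4 CPM in D14 and 21.9, 14.1 and 12.2 CPM in D0 lungs (0.34, SE 0.27; adjusted p = 0.579, and 0.63 without D0 replicate 1 or 0.18 without D0 replicate 3). The Lef1 ranges overlapped, since D14 replicate 1 was low and D0 replicate 1 high. T cell markers, 6 of 6 with counts, summed to 65.6 to 75.8 CPM in D14 and 64.3 to 115 CPM in D0 lungs. Per 1000 CPM of that sum, Lef1 had 236.5, 304 and 312 CPM in D14 lungs, against 191, 201.5 and 190 CPM in D0 lungs, without overlap. The part of the T cell share in the Lef1 level was not tested.

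Axin1, the most abundant of these members per kilobase, had 54.8, 46.0 and 43.7 CPM in D14 and 52.0, 58.5 and 42.1 CPM in D0 lungs, and its log2 fold change, −0.079 (SE 0.17), changed sign after correction for GC content (0.062) and without D0 replicate 2 (0.039). Tcf7l1, which mainly represses targets, had 28.6, 25.6 and 28.65 CPM in D14 lungs, against 31.6, 24.8 and 19.7 CPM in D0 lungs (0.12, SE 0.20, and −0.031 without D0 replicate 3). Tcf7l2 stood at −0.29 (SE 0.23). For all 5 the ranges of the days overlapped.

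Of the 56 further pathway genes listed, 51 were tested, and their median on the log2 scale was 0.079. At an unadjusted p under 0.05 stood 6 higher and 4 lower of the 51, where 5.48% of all tested genes were higher and 7.09% lower at that p, and 0 passed an adjusted p of 0.05 by edgeR. Sp5, a transcription factor known as a direct canonical target, had 2.03, 0.829 and 1.35 CPM in D14 lungs, against 7.79, 5.05 and 7.02 CPM in D0 lungs. Its log2 fold change, −2.23 (SE 0.38; edgeR adjusted p = 0.189), stayed between −2.59 and −1.96 over the alternatives, and DESeq2 gave an adjusted p of 2.27e-05. The Sp5 transcript has 62.0% GC, in a class where the median of all tested genes was −0.28. Of the 10 transcripts known to be induced by Wnt, Sp5 included, 6 had positive values, where 46.9% of all tested genes did. The median of the 10 was 0.092. Among the 6 were the feedback inhibitors Apcdd1 at 0.53 (SE 0.20) and Nkd1 at 0.26 (SE 0.19). Apcdd1 stood at 0.17 with the trend on transcript length removed and at 0.33 without D14 replicate 3.

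In the cascade, Gsk3b, the kinase that marks beta-catenin, had 56.1, 58.2 and 147.5 CPM in D14 lungs, against 38.7, 30.85 and 14.3 CPM in D0 lungs (1.64, SE 0.49, and 1.04 without D14 replicate 3; adjusted p = 0.357 with edgeR and 0.0286 with DESeq2). D14 replicate 3 was far above and D0 replicate 3 far below the other libraries of their day. The other cascade genes with an unadjusted p under 0.05 differed less. On the log2 scale Csnk1a1, a kinase that primes the same step, stood at 0.36 (SE 0.14), the co-repressor Tle4 at 0.46 (SE 0.14) and Tnks2, which destabilises Axin, at 0.42 (SE 0.15). The adaptor Dvl1 stood at −0.31 (SE 0.13) and the co-repressor Tle2 at −0.54 (SE 0.15). With GC correction Dvl1 was at −0.11 and Tle2 at −0.35, and with length correction Tnks2 was at 0.22. Ctnnb1, encoding beta-catenin, had 725 ± 184 CPM in D14 and 655 ± 165 CPM in D0 lungs (SD, n = 3). Among membrane proteins Reck, which with Adgra2 helps Wnt7a and Wnt7b to signal at brain endothelium, stood at 0.54 (SE 0.18), and Prickle1, of the planar polarity branch, at −1.18 (SE 0.40). D0 replicate 1 held 156 CPM of Prickle1, and without that library the value was −0.64. Wls and Porcn, needed for secretion of Wnt proteins, stood at 0.054 (SE 0.15) and 0.0047 (SE 0.18).

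Members with D14 below D0 mostly had transcripts of high GC content. Of the 7 with D14 below D0, 6 had 55.4% to 59.5% GC, and Wnt10b had 51.9%. Fold changes followed GC content over the whole table. The median log2 fold change of tested genes with 40% to 45% GC was 0.094, and of those with 55% to 60% GC it was −0.18. Among 3052 genes with 55% to 60% GC, D14 lay below D0 in 19.3%, and among the 17 members there in 6, or 35.3%. D14 lay above D0 in 4.85% of those genes and in 0 of the members, and 13.1% of them, against 6 of the 17 members, were lower at an unadjusted p under 0.05. In the class of 50% to 55% GC, D14 lay above D0 in 8.22% of genes and in Lrp5 and Dkk3 among 13 members, and below D0 in 10.9% and in Wnt10b. In the class of 45% to 50% GC, D14 lay above D0 in 13.6% of genes and in Fzd4 and Lrp6 among 11 members, and below D0 in 7.55% and in 0 members. Genes with 55% to 60% GC deviated from their own mean over libraries by a median of −0.0091, −0.068 and −0.14 log2 units in the D14 libraries, against 0.092, 0.051 and 0.13 in the D0 libraries. D14 replicate 1 lay nearest to D0 on this measure. The same held for 6 of the 7 members with D14 below D0. Wnt10b, outside that class, was among them, and Wnt7b, inside it, was not. The part of GC content in these differences was not tested.

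When each library's trend on GC content was removed, an alternative chosen after seeing the data, the median log2 fold change of the members was −0.021, beside −0.013 for all tested genes. Fzd4 then stood at 1.18 (SE 0.25), Fzd2 at −0.87 (SE 0.15), Wnt3a at −0.67 (SE 0.24), Wnt10b at −0.71 (SE 0.26) and Wnt7a at −0.50 (SE 0.16). The adjusted p of these 5 ran from 0.221 to 0.427 (edgeR). Of the 23 members followed through the alternatives, only Axin1 changed sign with this correction. Notum stood at −0.32 (SE 0.17), Rspo1 at −0.69 (SE 0.36), Wnt9a at −0.43 (SE 0.18) and Wnt7b at −0.47 (SE 0.29). The count of lower members at an unadjusted p under 0.05 was 5, against 7 without the correction. Removing the trend on transcript length instead left Fzd4 at 1.04 (SE 0.18) and Fzd2 at −1.03 (SE 0.15), while Lrp5 stood at 0.23 (SE 0.11) and Lrp6 at 0.26 (SE 0.11), nearer to 0 than before the correction.

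**Figure D5:**
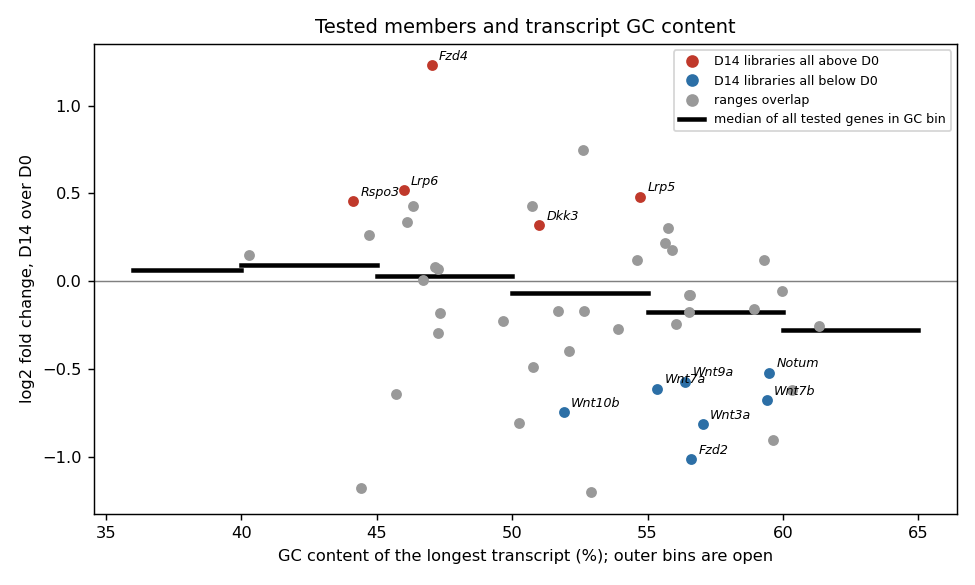
Log2 fold change of D14 over D0 (y axis) against GC content of the longest transcript in percent (x axis) for the 47 tested members. Black lines give the median of all tested genes in each GC class, from 0.094 at 40% to 45% to −0.28 above 60%, and coloured points mark members whose libraries did not overlap. Members with D14 below D0 lie mostly between 55% and 60% GC, and each of them lies below the line of its class.

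The members, like all tested genes, varied more between libraries at D0 than at D14. The SD was a median of 15.4% of the mean in D14 and 23.5% in D0 lungs, where all tested genes had 14.2% and 21.4%. It was above 50% for 4 members in D14 and 8 in D0 lungs, a count not made over all tested genes. The steadiest at D14 were Axin2 at 1.31%, Fzd1 at 1.60% and Dkk3 at 2.27%, and the steadiest at D0 was Notum at 3.697%. D0 replicate 3 held the lowest value of 14 and the highest of 13 of the 47 tested members, while 29.8% and 28.6% of all tested genes had their lowest and highest value there.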

How the data were processed

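Bulk RNA of 6 lung libraries, 3 of D14 and 3 of D0, was sequenced. The authors deposited 1 table of unscaled estimated counts, with gene symbols as rows. It holds 0 columns of no sample. Per the labels' protocols, TRIzol and an NEB library kit were used. The submitters' processing notes name, with no role or order, the build GRCm38 and the tools edgeR, StringTie 1.3.4b, HISAT2 2.1.0 and CASAVA 1.8. Of 29757 table lines, 2 empty and 2 displaced lines were left out, so Tnf and Tgfb1 are not analysed here. Another 50 rows repeat a symbol and were kept apart, none of them a member. All values used were whole, so rounding altered none.

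Tests used edgeR 4.0.16 in R 4.3.3 (TMM factors, default low count filter, robust quasi-likelihood F test, two-sided, no covariate) with Benjamini-Hochberg adjustment over 17686 genes and a threshold of 0.05. The SE is the log2 fold change divided by the square root of F. Alternatives used DESeq2 1.42.0 and limma-voom (limma 3.58.1), other scalings and filters, a replicate block and each library left out. Fits were also run on simulated counts to check the calculation. Those counts held no library that stood apart as D0 replicate 3 did. Positions, lengths and GC content come from GENCODE M21 (GRCm38), with 97.9% of tested symbols matched, and promoters from RefSeq (GRCm38.p6). Values per library are given for members whose ranges do not overlap at a mean of at least 1 CPM, the 2 most abundant of each role, Axin2 and Lef1. Others with values were chosen after they were seen. Members and lists were chosen with earlier results of these data known.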

Additional observations from a re-analysis of the deposited data

How the results depend on the processing

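Of 23 members followed through 17 alternatives, 20 kept their sign in all of them. The sign turned for Axin1, with 0.039 without D0 replicate 2, 0.062 with GC correction and −0.20 to 0.039 when 1 library was left out. It also turned for Tcf7l1 (−0.031 without D0 replicate 3; −0.031 to 0.32 when 1 library was left out) and Rnf43 (0.043 without D14 replicate 3; −0.52 to 0.043 when 1 library was left out). Fzd4 and Fzd2 passed the threshold with DESeq2, which made the count of members 2, and with no other alternative.

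The count of genes past the threshold, 6, was 274 with DESeq2, 26 with no low count filter and 15 with length correction, and it lay between 0 and 22 when 1 library was left out. The count of higher members at an unadjusted p under 0.05, 1, was 3 with RLE size factors, no low count filter, DESeq2, limma-voom or length correction, 2 with GC correction, and 1 to 6 when 1 library was left out. The count of lower members, 7, was 2 to 12 when 1 library was left out. The median log2 fold change of members was −0.021 with GC correction and ran from −0.23 to 0.0079 when 1 library was left out. The cause was not tested.

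The replicate number as a block gave 0 genes past the threshold. Same-numbered libraries of the 2 days had correlations of 0.119, −0.0548 and −0.0972 between their deviations from the group means, so the number was not taken as a pairing. Not every library correlated best with its own number. Depth limits members under the filter, at up to 25 counts per library.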
